A study of Schizosaccharomyces pombe with 16 samples.

Results

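First introns of multi-intron genes are the introns nearest the promoter in Schizosaccharomyces pombe (fission yeast) genes that hold more than 1 intron. They were taken as the intron probes numbered 1 of genes with at least 2 different intron numbers among their probes. The rule uses probe names alone and no measured value. It gave 1266 first introns among 4885 intron probes, beside 2522 later introns of multi-intron genes and 1097 introns of genes with 1 intron probe number. Of 1272 multi-intron genes, 6 had no probe for intron 1.

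The arrays compared 4 mutants of rpb1, the gene of the largest RNA polymerase II subunit, with a strain labelled WT that was hybridised in the other colour of every array. In S7A the serine at position 7 of the C-terminal repeat is alanine, in S2A the serine at position 2 is alanine, in S2A/S7A both are alanine, and in S7E the position 7 serine is glutamate, which carries a negative charge as a phosphate does. All 4 mutants carried 18 leading repeats called the rump, followed by 14 repeats with the change. The labels do not give the number of repeats in the WT strain. Cells were grown separately for each replicate in rich medium (YES) to mid-log phase, which gave S7A 4 arrays, S2A 4, S2A/S7A 5 and S7E 3. The mutant was labelled with Cy5 on 7 of the 16 arrays and with Cy3 on 9. S7E had a single Cy5 array, replicate 1, so the dye and that array cannot be told apart within S7E. The labels do not say whether arrays shared WT RNA, or whether a mutant was 1 isolate.

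The C-terminal domain of RNA polymerase II is a tail of repeats that kinases phosphorylate as the enzyme moves along a gene. Phosphate on serine 2 is known to build up toward the end of genes and to bind elongation and RNA 3′ end processing factors, while phosphate on serine 7 appears earlier. Most fission yeast introns are removed while the gene is still being transcribed, and the first intron is the earliest one that the polymerase makes. An intron probe reads RNA that still holds the intron, an exon probe reads all RNA of the gene, and a junction probe reads RNA in which the neighbouring exons have been joined. RNA came from whole cultures, so a change in every cell and a larger change in some cells cannot be told apart.

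Each value below is the intron probe minus the exon probe of the same gene on the same array, in log2 of the mutant over WT. Base 2 and this direction are likely but are not stated in the sources used here. The direction rests on the titles, which name the mutant, and on the design, which compares mutants with WT. Almost every gene had a single exon probe: 1 first-intron gene had several, so the exon part of a value usually rests on 1 probe. An exon probe was present for 1258 of the 1266 first introns. A value on at least 2 arrays of every mutant was required, which left 1138 first introns (128 not tested), and 731 of them had a value on all 16 arrays. The fit was limma across all 4395 introns that met this requirement, with a mean per mutant and a dye term, and an intron passed at a Benjamini-Hochberg adjusted p under 0.05. The dye term passed for 20 first introns. The sequence and position of the probes are not analysed here.

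In S7A, first introns were mostly lower relative to exons than in WT. Of 1138 first introns, 309 fell and 89 rose, where 30.2% of all introns were called lower and 6.73% higher. The median over first introns was -0.08. In 227 of the 309 the intron probe itself was also lower at the threshold, and in 26 of the 89 it was also higher (22.8% and 1.84% of all introns met both). Only 49 of the 309 and 7 of the 89 were past a 1.5-fold change, so most calls were of small size. Over all 4395 introns, 220 lower and 16 higher calls were past it. The array medians were -0.12, -0.11, -0.14 and 0.02, with replicate 4 apart from the other 3, and without replicate 4 the count was 332 lower and 65 higher. Without replicate 2 it was 225 lower and 57 higher. The median over all introns was -0.11, and with the values centred on all introns of each array the split became 213 higher and 189 lower. Which direction led among the S7A calls thus turned with the scale.

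In S2A, calls were nearly balanced. Of 1138 first introns, 239 rose and 208 fell, where 19.9% of all introns were called higher and 19.0% lower. The intron probe itself passed in the same direction for 94 of the 239 and 91 of the 208 (7.3% and 7.76% of all introns). On the intron probe's own value the lead turned, with 223 higher and 262 lower. The median of the relative values was -0.0016, and 63 called first introns were more than 1.5-fold higher and 31 more than 1.5-fold lower. Over all 4395 introns these counts were 190 and 114. With the ratio read as mutant over WT, S2A held the strongest rises of any mutant, described below. Read the other way, these would be the strongest falls.

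In S2A/S7A, more first introns passed than in any other mutant, and lower calls led. There were 355 lower and 221 higher, where 33.4% of all introns were called lower and 16.5% higher. The intron probe itself passed for 194 of the 355 and 79 of the 221 (19.8% and 5.26% of all introns). The median was -0.06, against -0.09 over all introns, and centring on all introns turned the split to 317 higher and 245 lower. S2A/S7A also had the most arrays, 5. With arrays scaled to equal spread its count was 531, just under the 534 of S7A.

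In S7E, 268 first introns fell and 225 rose, where 25.6% of all introns were called lower and 18.2% higher. The intron probe itself passed for 121 of the 268 and 66 of the 225 (12.2% and 6.12% of all introns). The lead of lower calls rested on replicate 1: without it 157 fell and 177 rose, and with the replicate number as a block 169 fell and 197 rose of 1025 fitted. The median was -0.04, and centring gave 273 higher and 240 lower. With 3 arrays the SE was widest here, with a median of 0.10 against 0.09 in S7A.

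**Figure D1:**
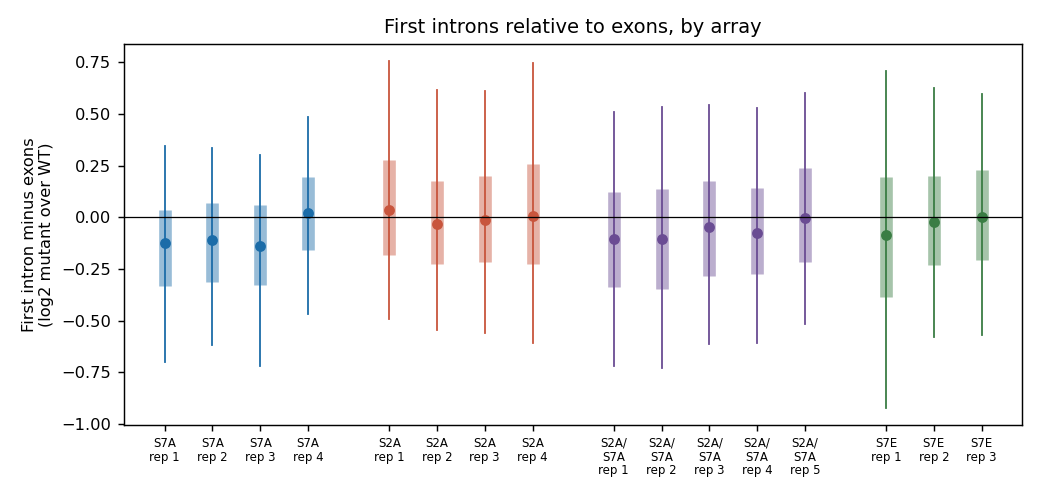
First introns relative to exons on each of the 16 arrays, in log2 of mutant over WT: points are medians, thick bars the middle 50% and thin lines the 5th to 95th percentile. S7A replicates 1 to 3 have medians from -0.14 to -0.11, and S7A replicate 4 lies at 0.02.

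**Figure D2:**
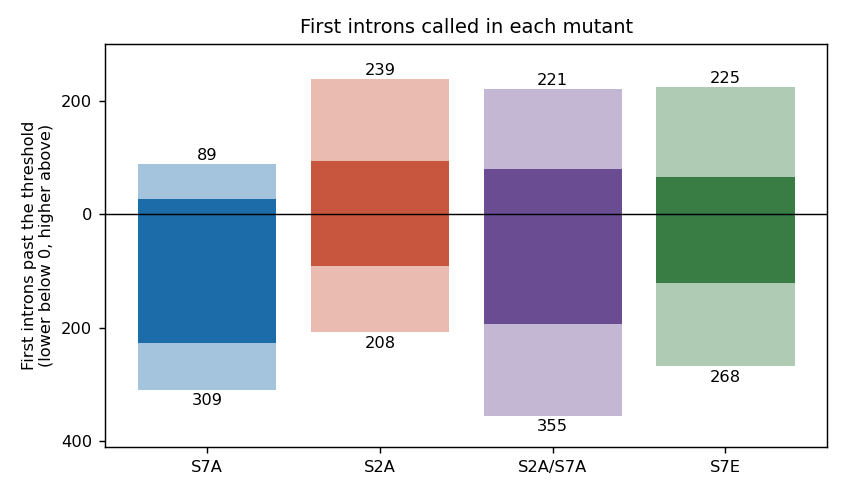
First introns past the threshold in each mutant, higher above 0 and lower below it (pale bars, counts printed), with those whose intron probe itself passed in the same direction in full colour. S7A has 89 higher and 309 lower, and S2A has 239 higher and 208 lower.

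The named introns that rose most fell into a group in which the intron probe itself rose and a group in which the exon probe fell. In some, such as atp14 and mic10, both happened. The first group was clearest in S2A. tcg1, which encodes a single-stranded telomeric DNA binding protein, had first intron values of 3.35, 3.49, 3.39 and 2.18 on the 4 S2A arrays. In S7A they were -0.33, -0.25, -0.22 and -0.48, in S2A/S7A they ran from -0.19 to 0.24, and in S7E from -0.38 to 0.03. All 4 S2A arrays lay far above every array of the other mutants. The fitted value in S2A was 3.10 (SE 0.12, adjusted p = 5.76e-12), with the intron probe at 3.55 and the exon at 0.45. Its only other intron probe, intron 2, went the other way, at -0.38 relative to exons, and the junction of exons 1 and 2 was at -0.07, which did not pass.

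tom20 encodes a receptor of the import machinery of the mitochondrial outer membrane. Its first intron was at 3.86, 3.46, 3.41 and 1.70 in S2A, from 0.16 to 0.60 in S7A, from 0.29 to 0.96 in S2A/S7A and from 0.39 to 0.75 in S7E. The lowest S2A array was above the highest array of the other mutants. The fit gave 3.11 (SE 0.22, adjusted p = 1.27e-08), and introns 2 and 3 of the gene were at -0.11 and 0.19, neither past the threshold. SPAC22H10.02, which has no gene symbol, showed the same order, with 2.29, 2.42, 2.27 and 1.57 in S2A and no array of another mutant above 0.70. Its fitted value was 2.14 (SE 0.15, adjusted p = 1.51e-08). In these genes the rise lay at 1 intron, since the later introns did not rise with it.

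atp14 encodes a subunit of the mitochondrial ATP synthase. Its first intron rose in both mutants whose altered repeats lack serine 2: 2.05, 2.00, 1.62 and 0.94 in S2A, and 2.11, 1.76, 1.77, 1.88 and 1.87 in S2A/S7A. In S7A it ran from 0.06 to 0.35 and in S7E from -0.25 to 0.44, below every array of the other pair. The fits gave 1.65 (SE 0.13, adjusted p = 4.31e-08) in S2A and 1.85 (SE 0.11, adjusted p = 3.62e-09) in S2A/S7A. The exon fell by 0.57 in S2A and by 0.47 in S2A/S7A, and the intron probe itself rose by 1.08 and 1.39. The other introns of atp14 differed among themselves: in S2A intron 2 was at 0.82 and intron 4 at 0.60, both past the threshold, and intron 3 at 0.22, which did not pass.

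SPAC8E11.04c, without a symbol, rose in S2A at 1.34 and in S2A/S7A at 1.12 together with its later introns, which averaged 1.11 and 0.96. mic10, a subunit of the complex that shapes mitochondrial inner membrane folds, was at 1.03, 0.98, 0.87 and 1.32 in S2A and from 0.86 to 1.10 in S2A/S7A, where it was named. Its fitted value there was 0.97 (SE 0.07, adjusted p = 2.02e-08), with the intron probe at 0.42 and the exon at -0.55. The exon thus held the larger part of the mic10 value.

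**Figure D3:**
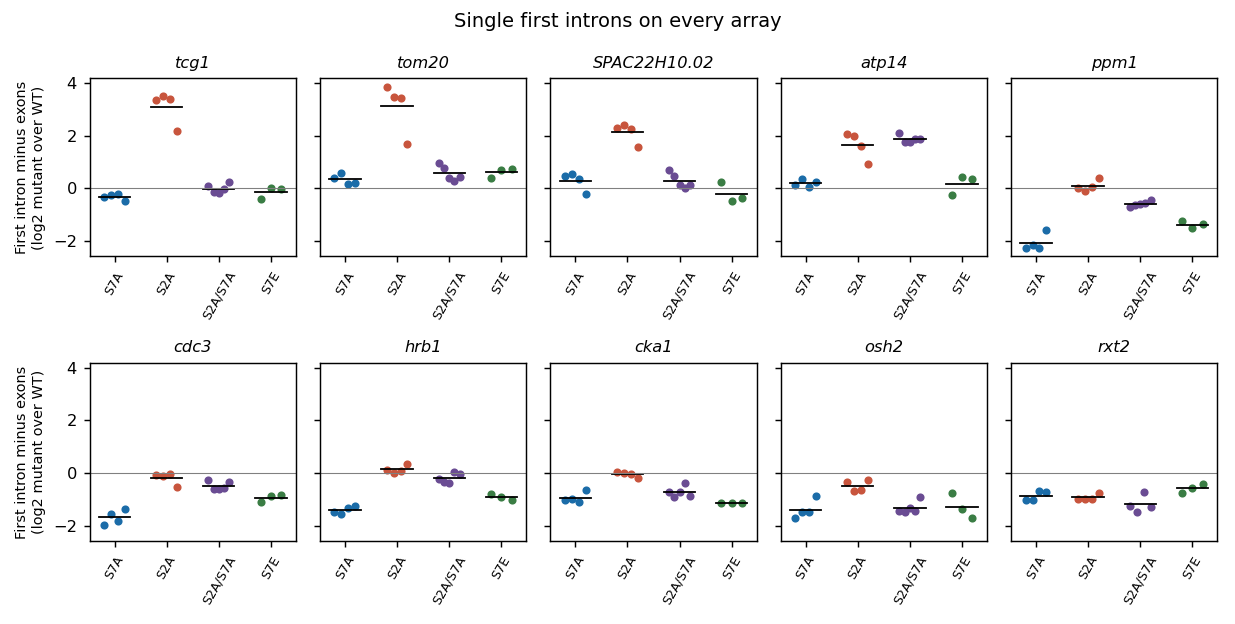
Values of 10 first introns relative to exons on every array, in log2 of mutant over WT; points are arrays in replicate order and lines are plain group means. tcg1, tom20 and SPAC22H10.02 are high in S2A alone, atp14 in S2A and S2A/S7A, while ppm1, cdc3, hrb1 and cka1 are low in S7A and S7E. In S2A/S7A, ppm1, cdc3 and cka1 are also low, by less than in S7A.

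In the second group the relative value rose while the exon fell, by more than any fall of the intron probe. klf1, a zinc finger protein of the Krüppel-like family, was highest in S7E, at 2.20, 1.32 and 1.35, with a fitted value of 1.63 (SE 0.13, adjusted p = 1.39e-07). Its exon was at -1.58 and its intron probe at 0.05. mug184, a gene known for higher expression in meiosis, was at 1.83, 1.18 and 1.37 in S7E, with the exon at -1.58 and the intron probe at -0.08. SPCC1529.01 was at 1.33, 1.38 and 1.61 in S7E and from -0.36 to 0.01 in S7A, and its exon was at -1.37 in S7E.

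pet801 rose in all 4 mutants, at 0.62 in S7A, 1.46 in S2A, 1.33 in S2A/S7A (3 arrays with a value) and 1.21 in S7E, and its exon fell in each, by up to 1.78 in S2A. sei1, the fission yeast seipin, which shapes lipid droplets, also rose in all 4, from 0.70 in S2A to 1.28 in S2A/S7A. Its exon was between -1.34 and -0.73, and its intron probe passed upward in S7E alone, at 0.40, with 0.99 on replicate 1 and 0.11 and 0.07 on the others. SPAC11D3.11c rose by 1.06 in S2A/S7A with its intron probe at -0.54 and its exon at -1.59. mde1 was at 1.16, 1.04, 0.97 and 1.11 in S2A, with the exon at -1.36 and the intron probe at -0.29. The intron probe itself fell past the threshold in SPAC11D3.11c in S2A/S7A, in mde1 in S2A and in pet801 in S2A (-0.32), in each by less than the exon.

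lsd90 rose in all 4 mutants on both scales. Its first intron values were 0.89, 1.20, 0.94 and 0.66 in S7A and 1.29, 1.32 and 1.80 in S7E, and its intron probe was between 0.53 and 1.17 in the 4 mutants. The later intron rose with it, at 0.89 in S7A and 1.38 in S7E. In S2A the relative value was 0.38, and without S2A replicate 1 it was 0.31 with an adjusted p of 0.060.

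S7A had smaller rises. SPBC582.11c was at 0.65 with the intron probe at 0.49, and its later introns averaged -0.16. wtf17, of the wtf family that includes meiotic drivers, was at 0.61 with the intron probe at 0.26. dre4 was at 0.62, and here exon and intron probe both fell, by 0.91 and 0.29. With exon and junction probes together as the reference, dre4 was at 0.03 and did not pass.

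With the ratio read as mutant over WT, the strongest falls were in S7A, and those of ppm1 and cdc3 lay in the intron probe itself. Read the other way, these would be rises. ppm1, whose budding yeast counterpart is a methyltransferase of protein phosphatase 2A, had first intron values of -2.27, -2.15, -2.27 and -1.55 in S7A and -1.24, -1.51 and -1.36 in S7E. In S2A/S7A they ran from -0.68 to -0.43 and in S2A from -0.08 to 0.40. The mutants took separate ranges in that order, from S7A at the bottom to S2A at the top. The fitted values were -2.06 (SE 0.10, adjusted p = 1.52e-10) in S7A, -1.34 in S7E and -0.56 in S2A/S7A, all past the threshold, and 0.09 in S2A, which did not pass. The exon of ppm1 was at -0.10 in S7A, the junction of exons 1 and 2 was at 0.20, and introns 2 and 3 fell with the first, by 1.53 and 1.19.

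cdc3 encodes profilin, which binds actin monomers. Its first intron was at -1.96, -1.56, -1.80 and -1.37 in S7A, at -1.09, -0.87 and -0.83 in S7E, from -0.61 to -0.27 in S2A/S7A and from -0.52 to -0.04 in S2A. The fit in S7A was -1.67 (SE 0.09, adjusted p = 7.36e-10), with the exon at -0.14. hrb1, whose budding yeast counterpart binds mRNA, was at -1.47, -1.54, -1.34 and -1.25 in S7A and at -0.81, -0.92 and -1.03 in S7E, and from -0.36 to 0.34 over S2A and S2A/S7A together. The S7A and S7E arrays of hrb1 all lay below those of the mutants whose altered repeats lack serine 2.

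dsh1, a factor of RNA interference silencing, was at -1.43 in S7A (SE 0.11, adjusted p = 7.05e-08), with -0.81 on replicate 4 against -1.76 to -1.54 on the others. slm5, whose budding yeast counterpart charges the mitochondrial asparagine tRNA, fell by 1.38 in S7A, and its first junction fell with it, by 0.96. With exon and junction probes together as the reference, slm5 was at -0.80 in S7A and still passed. In S7E the slm5 arrays were split, at 1.13, -0.43 and -0.64, and the value there did not pass.

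osh2, of the oxysterol-binding protein family, fell in all 4 mutants. It was at -1.71, -1.47, -1.48 and -0.86 in S7A, at -1.42, -1.47, -1.32, -1.42 and -0.90 in S2A/S7A, at -0.74, -1.36 and -1.69 in S7E, and from -0.68 to -0.27 in S2A. In S2A its intron probe was at -0.04 and the exon at 0.44, so in that mutant the fall of 0.48 lay in the exon probe. rxt2, a subunit of a histone deacetylase complex, fell in all 4 as well, from -0.56 in S7E to -1.18 in S2A/S7A, with its intron probe between -0.77 and -0.61. ypt1, the Rab GTPase of transport from endoplasmic reticulum to Golgi, was at -0.69, -0.59, -1.06 and -1.06 in S7A, S2A, S2A/S7A and S7E.

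The first intron of cka1, the catalytic subunit of casein kinase 2, fell with close agreement between S7E arrays, at -1.15, -1.12 and -1.14. It was at -0.93 in S7A and -0.72 in S2A/S7A, and at -0.04 in S2A, which did not pass. Among other lowest S7E values, ade2, the adenylosuccinate synthetase of purine synthesis, was at -1.12, almost all in its intron probe at -1.05. pps1, a phosphatidylserine synthase, was at -1.13 with its exon at 0.85 and its intron probe at -0.27.

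In S2A/S7A, mcs2, the cyclin partner of a kinase that phosphorylates the C-terminal domain, was at -1.12, -1.03, -0.91, -0.99 and -0.89. Its fitted value was -0.97 (SE 0.11, adjusted p = 1.68e-06), with the exon at 0.11 and the later intron at -0.11. SPBC530.11c fell by 1.03 there, and its first junction fell by 0.73. With exon and junction probes together as the reference, SPBC530.11c was at -0.51 and still passed. SPAP27G11.12 fell by 1.12 in S2A/S7A and by 0.83 in S2A, in both with its exon up, at 0.70 and 0.65.

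The lowest S2A values were modest. SPCC417.09c was at -0.93, with -0.84, -0.78, -0.86 and -1.24 on the arrays. amk2, the beta subunit of the AMP-activated kinase, was at -0.81, ppk38, a protein kinase, at -0.78 and ptb1 at -0.76. All 3 had a higher exon, by 0.25 to 0.34, and a lower intron probe, from -0.51 to -0.47.

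Some large S7E values rested on replicate 1. qcr8, a subunit of respiratory complex III, was at 3.83, 0.31 and 0.31, and its fitted value of 1.57 (adjusted p = 0.00361) became 0.27 without replicate 1 (adjusted p = 0.104). sbp1, the Ran-binding protein of nuclear transport, was at -2.54, -0.22 and -0.61, and -1.17 became -0.37 (adjusted p = 0.136). rps29, a small ribosomal subunit protein gene, was at -2.31, -0.13 and -0.19, and -0.98 became -0.31 (adjusted p = 0.0256), which still passed. In each of the 3, replicate 1 was far from replicates 2 and 3, which lay close together in qcr8 and rps29.

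First introns called in a mutant often went opposite to the exon of their gene. Where the exon was below -0.25, 37.4% of first introns were called higher in S7A, 54.9% in S2A, 57.0% in S2A/S7A and 59.4% in S7E. Where the exon was above 0.25, the called-lower shares were 59.0%, 53.4%, 62.1% and 54.1%. Between -0.25 and 0.25 the split was 43 higher and 248 lower of 937 in S7A, 93 and 102 of 703 in S2A, 86 and 202 of 684 in S2A/S7A, and 72 and 113 of 619 in S7E. The exon value is subtracted in every relative value, so error in the exon probe enters both sides. These shares by exon value were not taken over all introns. They do not show whether first introns differ from other introns in this. Across genes the relative value and the exon value correlated at r = -0.40, -0.60, -0.62 and -0.66 in S7A, S2A, S2A/S7A and S7E (n = 1138 genes, which are not independent replicates). The intron probe and the exon value, which share no probe, correlated at 0.34, 0.40, 0.44 and 0.36.

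**Figure D4:**
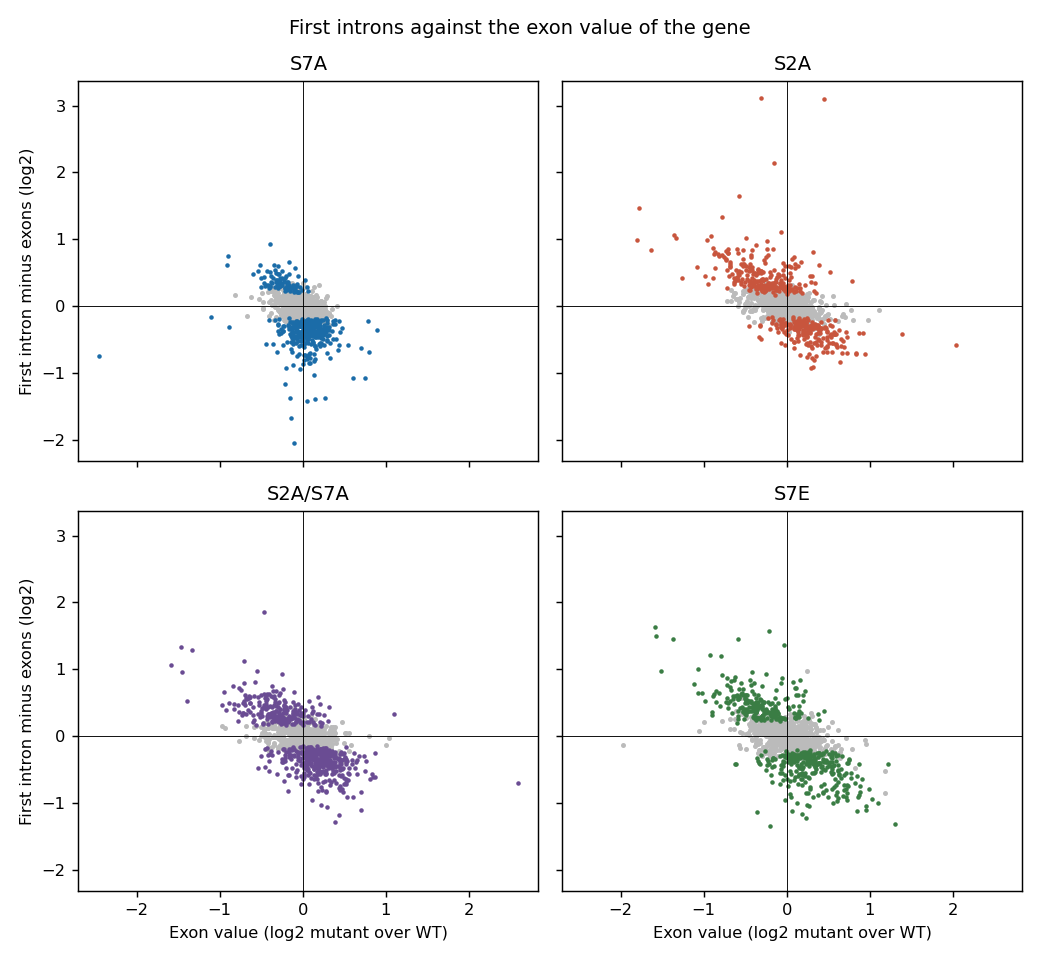
First introns relative to exons (vertical) against the exon value of the gene (horizontal), both in log2 of mutant over WT, in each mutant; coloured points passed the threshold. The exon value is part of both axes, and the cloud slopes downward in each mutant (r from -0.66 to -0.40).

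Called shares were also taken by the number of intron probes in a gene. In S7A 28.2% of first introns were lower among 575 genes with 2 intron probes, 26.6% among 289 with 3, 21.9% among 146 with 4 and 29.7% among 128 with 5 or more. In S2A the higher shares were 22.3%, 21.1%, 19.2% and 17.2% in the same order, and the lower shares 17.9%, 18.3%, 14.4% and 24.2%. In S2A/S7A the lower shares lay between 28.1% and 33.6%, and in S7E between 21.1% and 24.9%. These shares were not tested against each other and were not taken over all introns.

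Shares were also taken for later introns of the same genes and for introns of single-intron genes, and were not tested against each other. In S7A 27.2% of first, 30.9% of later and 32.1% of single introns were called lower. In S2A/S7A the lower shares were 31.2%, 37.2% and 27.1%, and the higher shares were 19.4%, 14.5% and 17.6%. In S2A 21.0% of first, 17.6% of later and 24.2% of single introns were called higher, and in S7E the lower shares were 23.6%, 28.2% and 22%. Across genes, the first intron probe and the mean of the later intron probes correlated at 0.56, 0.54, 0.55 and 0.53 in S7A, S2A, S2A/S7A and S7E, as a description over 1128 to 1133 genes that share their array and transcription unit.

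The direct comparison of first with later introns of the same gene needs no exon probe, because the exon value cancels. It was tested for 1098 genes. In S7A the first intron was higher than the later ones in 219 genes (19.9%) and lower in 169 (15.4%). S2A had 122 higher (11.1%) and 128 lower (11.7%), S2A/S7A had 247 (22.5%) and 167 (15.2%), and S7E had 170 (15.5%) and 129 (11.7%). Without 1 array, the counts that moved by over 1.5 times were 139 higher in S7A without replicate 1, 76 lower and 79 higher in S2A without replicates 1 and 3, and 103 higher in S7E without replicate 1. The small lead of lower calls in S2A turned without replicate 1 (91 higher, 76 lower) or 2 (90 and 86). Unequal change of introns within a gene was thus called in both directions in every mutant.

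The S2A genes with a rise at intron 1 led this comparison, with differences of 3.48 for tcg1, 3.07 for tom20 and 2.28 for SPAC22H10.02. The mirror image also occurred in S2A. SPAC8C9.20 had a first minus later difference of -3.15, -2.75, -2.69 and -1.45, because its intron 3 was at 2.92, 3.05, 2.79 and 1.76 relative to exons while its first intron probe ran from 0.12 to 0.50. SPBC16E9.02c was at -1.87, -1.89, -1.79 and -1.75, with intron 2 between 1.61 and 2.12 and the first intron probe between -0.17 and 0.11. In both genes the later intron was high in S2A alone: on the arrays of the other mutants it lay at or below 0.65 and 0.19. A rise at 1 intron of a gene in S2A was thus seen both at first and at later introns.

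pot1, which encodes a protein that binds the single-stranded end of telomeres, was among the 3 lowest in first minus later introns in each mutant. The difference was -1.18, -1.18, -1.30 and -0.40 in S7A, -0.84, -1.03, -0.97 and 0.08 in S2A, from -1.66 to -0.71 in S2A/S7A and -1.57, -2.08 and -1.77 in S7E. Its intron 2 rose relative to exons in all 4, by 0.84, 0.47, 1.08 and 1.46, and its first intron passed in none. In S2A the call was lost without replicate 1 (-0.58, adjusted p = 0.052).

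In S7A the first intron probe stayed near 0 while the later intron fell in rpb5, igo1 and ste13. rpb5 encodes a subunit shared by the nuclear RNA polymerases (difference 0.92). igo1 encodes an endosulfine of nutrient signalling (0.90), and ste13 a DEAD-box helicase of mRNA decay (0.86). The later intron was at -0.65 in rpb5 and -0.73 in both igo1 and ste13, and the first intron probes were between -0.10 and 0.01. The opposite was seen for cka1, whose first intron fell while the later ones averaged 0.04. In S2A/S7A the difference was 1.62 for atp14, 1.13 for tif222, a subunit of translation initiation factor eIF2B, and 0.94 for oca8, and it was -0.94 for ank1 and -0.86 for mcs2.

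In S7E the difference for mug184 was 1.27, 1.18 and 1.39. The remaining S7E genes named by the rule beside pot1 rested on replicate 1: rsm19, a mitochondrial ribosomal protein gene, had 2.52, 0.19 and -0.16, sar1, the GTPase of COPII vesicles, had -3.96, 0.18 and 0.23, and the probe set nSPAC25H1.10c had -4.40, -0.06 and 0.17. qcr8 had 3.66, 0.08 and 0.17 and belongs with them.

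**Figure D5:**
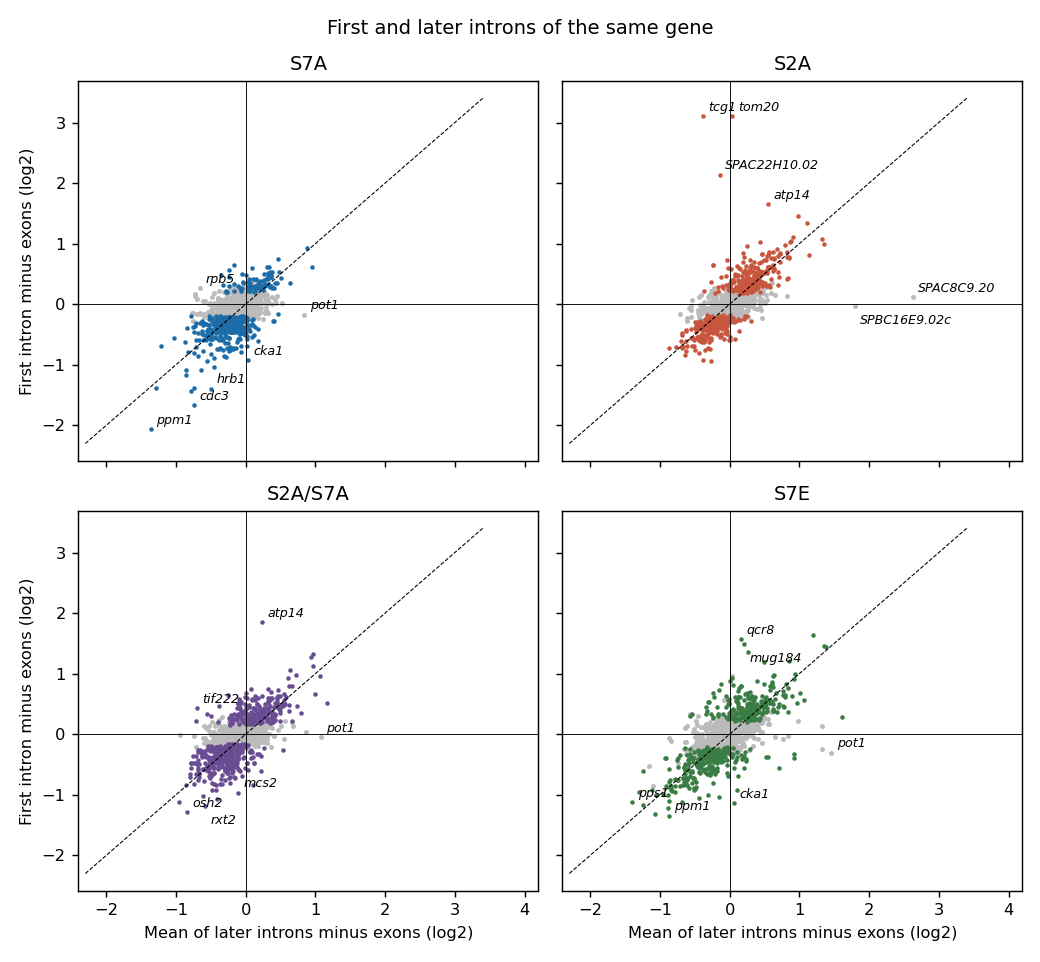
First intron relative to exons (vertical) against the mean of the later introns relative to exons (horizontal), per gene and mutant, in log2 of mutant over WT; coloured points are first introns past the threshold and the dashed line marks equal change. tcg1, tom20 and SPAC22H10.02 stand far above the line in S2A, SPAC8C9.20 and SPBC16E9.02c far to the right of it, and pot1 lies right of the line in the 3 panels where it is labelled.

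The junction of exons 1 and 2 reads the spliced product around the first intron, and 1092 such junctions were tested relative to exons among 4390 junctions of adjacent exons. In S7A 141 were higher and 19 lower, where 11.7% of all junctions were called higher and 1.94% lower. S2A had 58 higher and 78 lower (6.51% and 8.0% of all junctions), S2A/S7A had 60 and 57 (7.56% and 5.1%), and S7E had 55 and 42 (5.24% and 4.65%). Junction counts moved most with single arrays: the S7A split was 85 and 11, 81 and 8, and 86 and 11 without replicates 1, 2 and 3, and the S7E split was 27 and 13 without replicate 1. In S2A it was 61 and 57, 56 and 50, 27 and 46, and 37 and 91 without replicates 1 to 4, and in S2A/S7A 47 and 50 without replicate 1 and 36 and 39 without replicate 3. No direction therefore led throughout in S2A or S2A/S7A. First introns and their junctions moved largely apart: across 1013 genes their relative values correlated at 0.06, 0.13, -0.03 and 0.14 in S7A, S2A, S2A/S7A and S7E. Of the 309 first introns lower in S7A, 286 had a tested junction, of which 42 were called higher and 4 lower. Of the 239 first introns higher in S2A, 217 had one, and 10 of these junctions were called lower and 12 higher.

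Between mutants, S2A stood above S7A at 260 first introns and below it at 92, where 24.8% of all introns were called higher and 6.69% lower. Without S2A replicate 2 the lower count was 57. tcg1 differed by 3.42, tom20 by 2.77 and ppm1 by 2.15, all with the intron probe itself. The 3 lowest lay in the exon instead. tfg1, a subunit of the initiation factor TFIIF, was at 0.48, 0.44, 0.59 and 0.42 in S7A and at -0.94, -0.68, -0.63 and -0.57 in S2A, with exons of -0.60 and 0.84. SPAC17C9.11c differed by -1.07 and pca1, the metacaspase, by -0.94, with exons higher in S2A than S7A by 1.21 and 0.82. With exon and junction probes together as the reference the 3 differences were -0.41, -0.22 and -0.55, and those of SPAC17C9.11c and pca1 did not pass (adjusted p = 0.208 and 0.0903).

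S2A/S7A differed from S2A at the fewest first introns of any pair, 24 higher and 102 lower, where 2.0% and 10% of all introns were called. The higher count was 8, 11, 13 and 14 without S2A replicate 2, S2A replicate 3, S2A/S7A replicate 3 and S2A/S7A replicate 5, and without S2A replicate 3 or S2A/S7A replicate 3 the lower count was 66 or 65. The lowest were the introns that rose in S2A: tcg1 by -3.14, tom20 by -2.56 and SPAC22H10.02 by -1.86. The first introns of these genes in S2A/S7A lay near those of S7A and S7E, although the altered repeats of both S2A and S2A/S7A lack serine 2. The highest were SPBC3E7.11c at 1.10, rhn1, a homologue of the termination factor Rtt103, at 0.81 (2 S2A/S7A arrays), and vid27 at 0.73, and in none of the 3 did the intron probe itself pass. With exon and junction probes as the reference SPBC3E7.11c was at 0.31 (adjusted p = 0.12).

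S2A/S7A against S7A gave 181 higher and 97 lower (14.7% and 8.1% of all introns), and the lower count was 59 without S7A replicate 2. atp14 was higher by 1.65, ppm1 by 1.5 and SPCP1E11.01c by 1.31, the last in the exon. tfg1, drc1, a factor of replication initiation, and SPAC17C9.11c were lower by exon change, at -1.13, -0.96 and -0.91. With exon and junction probes as the reference tfg1 was at -0.36, SPAC17C9.11c at -0.38, drc1 at -0.94 and SPCP1E11.01c at 1.42, all still past the threshold.

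S7E and S7A change the same serine, to glutamate and to alanine. S7E was higher at 234 first introns and lower at 107, where 20.9% and 8.51% of all introns were called. The lower count was 56 without S7E replicate 1, 67 and 69 without S7A replicates 2 and 4, and 66 with the replicate block. SPCC1529.01 differed by 1.68, with its exon at 0.78 in S7A and -1.37 in S7E, and klf1 by 1.60, with its exon at -0.12 and -1.58. slm5 differed by 1.5 with the intron probe, and by 1.01 without S7E replicate 1. The 3 lowest, fin1, a kinase of the NIMA family, sbp1 and cwf19, a splicing factor, rested on S7E replicate 1: fin1 was at -2.63, -0.09 and 0.07, and without that array the 3 differences were -0.32, -0.35 and -0.24, with adjusted p-values of 0.099, 0.25 and 0.371. cwf19 had 2 S7E arrays with a value.

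S7E against S2A gave 88 higher and 141 lower (7.21% and 11.3% of all introns), and S7E against S2A/S7A gave 120 and 75. In the latter comparison 10.4% of all introns were called higher and 5.23% lower. Without S7E replicate 1 the splits were 79 higher and 84 lower against S2A, and 119 and 47 against S2A/S7A. Without S2A replicate 2 the higher count against S2A was 57, and without S7E replicate 3 that against S2A/S7A was 78. mug184 was higher in S7E in both, by 1.46 and 0.99, with the exon. pca1 was higher in both, by 1.30 and 1.07, but its S7E arrays were 2.04, 0.24 and 0.15, and without replicate 1 the differences were 0.66 and 0.47. lsd90 was higher in S7E than in S2A by 1.07, and its exon was lower there. sec1, which acts in vesicle fusion at the plasma membrane, had -1.23, -0.90 and -0.90 in S7E, from -1.04 to -0.65 in S7A, from -0.09 to 0.59 in S2A/S7A and from 0.71 to 0.87 in S2A. All S7A and S7E arrays of sec1 lay below all S2A and S2A/S7A arrays, with intron probes of -1.01, -0.79, 1.13 and 0.53 in S7A, S7E, S2A and S2A/S7A. bet4, whose budding yeast counterpart is a subunit of the enzyme that attaches lipid to Rab proteins, was lower in S7E than in S2A/S7A by 1.43, but its S7E values were -3.51, 0.04 and -0.12, and without replicate 1 the difference was -0.30 and did not pass.

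Over the 4 mutants, 913 of the 1138 first introns passed in at least 1 mutant and 225 in none. There were 333 called in 1 mutant, 262 in 2, 215 in 3 and 103 in all 4. Of the last, 69 were lower in every mutant and 21 higher in every mutant. The arrays may share WT RNA, so these counts describe the calls and are no measure of overlap. A further 98 first introns were called in opposite directions in 2 mutants, as tfg1 and sec1 were. None of these counts was taken over all introns. They therefore do not show whether first introns differ from introns in general.

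First introns were also grouped by the genes they belong to, and each list's called share is set beside that of all introns. Respiratory chain and ATP synthase genes had 13 tested first introns. In S2A 10 rose (76.9%, against 19.9% of all introns) and 1 fell (19.0% of all), with a median of 0.57 against -0.0016 for all first introns, and the median exon of these genes was -0.57 while the median intron probe was 0.02. In S2A/S7A 6 rose (46.2%, against 16.5% of all introns) and 1 fell (7.7%, against 33.4%), with a median of 0.32. In S7E 3 rose (23.1%, against 18.2%) and 2 fell (15.4%, against 25.6%). Without replicate 1, 1 rose and 0 fell, beside 177 and 157 of all 1138 first introns. In S7A 2 rose (15.4%, against 6.73%) and 3 fell (23.1%, against 30.2%). atp1, the alpha subunit of ATP synthase, was at 1.01, 1.07, 0.95 and 0.34 in S2A. cox17, a copper chaperone of cytochrome oxidase, fell by 0.77 in S7A.

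Ubiquitin and proteasome genes had 39 tested first introns, of which 20 fell (51.3%, against 33.4% of all introns) and 4 rose (10.3%, against 16.5%) in S2A/S7A, with a median of -0.26 against -0.06 for all first introns. Centred on all introns, 11 fell and 5 rose, where 245 of all 1138 first introns fell and 317 rose in that setting. In S7E 14 fell (35.9%, against 25.6%) and 4 rose (10.3%, against 18.2%). Without replicate 1, 9 fell and 4 rose, beside 157 and 177 of all 1138 first introns. In S2A 12 fell (30.8%, against 19.0%) and 3 rose (7.7%, against 19.9%). In S7A 5 fell (12.8%, against 30.2%) and 6 rose (15.4%, against 6.73%). cul1, a cullin scaffold of ubiquitin ligases, fell by 0.59 in S2A/S7A with its exon at 0.47. pre6, a proteasome subunit, was at -0.86, -0.80 and -0.90 in S7E. The symbol match also took sum1, a translation initiation factor subunit, which fell by 0.75 in S7A.

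Actin, tubulin and cytokinesis genes had 15 tested first introns, with 9 lower (60%, against 33.4% of all introns) and 2 higher in S2A/S7A, and 6 lower (40%, against 25.6%) and 3 higher in S7E. Without S7E replicate 1 the latter were 3 and 1, beside 157 lower and 177 higher of all 1138 first introns. In S2A 4 were lower (26.7%, against 19.0%) and 1 higher (6.7%, against 19.9%). In S7A 4 were lower, led by cdc3, and 0 higher, and that 26.7% is near the 30.2% of all introns. Centred on all introns, the S7A counts were 2 lower and 3 higher, beside 189 and 213 of all 1138 first introns. nda3, the beta tubulin, was at -0.90, -0.93 and -0.75 in S7E, and arc5, of the Arp2/3 complex, fell by 0.73 with its exon at 0.60. Small GTPase genes had 14 tested, with 8 lower (57.1%, against 25.6% of all introns) and 0 higher (18.2% of all) in S7E. Without replicate 1, 3 were lower and 0 higher, beside 157 and 177 of all 1138 first introns. In S2A/S7A 6 were lower (42.9%, against 33.4%) and 1 higher (7.1%, against 16.5%). In S2A 4 were lower (28.6%, against 19.0%) and 0 higher (19.9% of all). In S7A 4 were lower (28.6%, against 30.2%) and 1 higher (7.1%, against 6.73%), and centred on all introns 3 were lower and 4 higher. spi1, the Ran GTPase, fell by 0.76 in S7E.

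Spliceosome and splicing factor genes had 35 tested first introns. In S7E 10 fell (28.6%, against 25.6% of all introns) and 5 rose (14.3%, against 18.2%). Without replicate 1 the counts were 5 and 3, beside 157 and 177 of all 1138 first introns. In S2A/S7A 9 fell (25.7%, against 33.4%) and 2 rose (5.7%, against 16.5%). In S2A 5 fell (14.3%, against 19.0%) and 3 rose (8.6%, against 19.9%). In S7A 3 fell (8.6%, against 30.2%) and 1 rose (2.9%, against 6.73%). Centred on all introns, 2 fell and 5 rose in S7A, beside 189 and 213 of all 1138 first introns. In S2A/S7A 4 fell and 5 rose in that setting, beside 245 and 317. The U6 snRNP protein gene lsm8 was at -0.76, -0.68, -0.87, -0.80 and -0.74 in S2A/S7A. lsm1, which acts in mRNA decay, fell by 0.71 in S2A/S7A and sme1, a core snRNP protein, by 0.89 in S7E, and in all 3 genes the exon was up, by 0.45 to 0.59.

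Genes of RNA polymerase II, its kinases, phosphatases and elongation factors had 20 tested first introns. In S2A/S7A 9 were lower (45%, against 33.4% of all introns) and 4 higher (20%, against 16.5%). In S7E 7 were lower (35%, against 25.6%) and 4 higher (20%, against 18.2%). Without S7E replicate 1, 3 were lower and 4 higher in S7E, beside 157 and 177 of all 1138 first introns. In S7A 7 were lower (35%, against 30.2%) and 2 higher, and in S2A 4 were lower (20%, against 19.0%) and 6 higher (30%, against 19.9%). Centred on all introns, the S7A counts were 4 lower and 8 higher, beside 189 and 213 of all 1138 first introns. rpb1 itself, the altered gene, was at -0.77, -0.83, -0.77 and -0.46 in S2A, where its exon was at 0.73 and its intron probe at 0.03. rtf1, matched by symbol, is known in fission yeast as a replication termination factor, and its first intron fell by 0.61 in S2A/S7A with the intron probe at -0.69.

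Of 12 first introns matched as cytosolic ribosomal protein genes, 4 rose (33.3%, against 19.9% of all introns) and 0 fell in S2A. In S2A/S7A 3 rose (25%, against 16.5%) and 2 fell (16.7%, against 33.4%). In S7E 1 rose (8.3%, against 18.2%) and 2 fell (16.7%, against 25.6%). In S7A 0 rose (6.73% of all) and 3 fell (25%, against 30.2%). rpl3802 rose by 0.62 in S2A with its intron probe at 0.07. rpp1, taken by its symbol, encodes an RNase P subunit, and fell by 0.56 in S7A. Meiotic and sporulation genes had 20 tested of 36, with 7 lower and 1 higher in S7A and 7 and 3 in S2A/S7A, 35% lower in both against 30.2% and 33.4% of all introns. Centred on all introns, 4 were lower and 4 higher in S7A, beside 189 and 213 of all 1138 first introns. In S2A/S7A 2 were lower and 3 higher in that setting, beside 245 and 317. In S2A 3 were lower and 3 higher (15% each, against 19.0% and 19.9%). In S7E 6 were lower (30%, against 25.6%) and 4 higher (20%, against 18.2%). Without replicate 1 the S7E counts were 2 and 5, beside 157 and 177 of all 1138 first introns. Histone and chromatin factor genes had 7 tested, with 3 higher (42.9%, against 19.9% and 16.5% of all introns) and 0 lower in S2A and in S2A/S7A. In S7A 1 was higher (14.3%, against 6.73%) and 2 lower (28.6%, against 30.2%), and centred on all introns 3 were higher and 2 lower. In S7E 1 was higher (14.3%, against 18.2%) and 0 lower (25.6% of all). Of these, hip1, of the HIRA histone chaperone, fell by 0.57 in S7A, sir2, a histone deacetylase, rose by 0.51 in S7E with the intron probe at -0.22, and hst2, of the same enzyme family, rose by 0.34 in S2A. Of stress and heat shock genes only cdc37, an Hsp90 cochaperone, was tested, and it fell by 0.32 in S7E, a call lost without replicate 1 (-0.24, adjusted p = 0.13). The 1 member from the mating list was not tested.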

How the data were processed

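The authors deposited 1 normalised log ratio per probe and array from 2-colour Agilent splicing-sensitive arrays, used here as log2 of mutant over WT. Normalisation, base and direction are not given in the sources used here. Array medians over all probes ran from -0.03 to 0.03. Samples were grouped by genotype, per the labels' titles and characteristics.

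From these deposited log2 values, each intron or junction probe had the mean exon probe value of its gene subtracted per array. limma (version 3.58.1, R 4.3.3) lmFit and eBayes fitted 4 mutant means and a dye term to all 16 arrays, two-sided, with Benjamini-Hochberg adjustment over every feature tested and a threshold of 0.05. The procedure was tested on simulated data. Genes were named through a RefSeq gene table: 1197 of 1266 matched and 1074 had a symbol. IDs starting with n (13 members) were kept apart.

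Named were, per mutant, the 6 highest and 6 lowest introns that passed and kept 1 sign over the measured arrays, the 3 highest and lowest per pair of mutants and per first-minus-later comparison, the 3 strongest of each gene list, and the 6 largest called the same way in all mutants. A gene that this rule named is not reported here. Members, lists and tests were chosen with earlier results of these data known. Deviations of same-numbered arrays correlated at r from -0.31 to 0.40 over 21 pairs, with a median of 0.05. Those of arrays with different numbers ran from -0.39 to 0.29 over 74 pairs, with a median of 0.01. The medians were both near 0, so numbers were not treated as pairs. Whether a single pair of same-numbered arrays shared a deviation was not tested, and most outlying values flagged below lay on arrays of the same number. Replicates were separate cultures, per the labels. The number of arrays limits the precision.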

Additional observations from a re-analysis of the deposited data

Results flagged for a closer look

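In 13 of 77 groups of values tested, 1 array lay far from the others of its mutant, by a rule that chance meets in about 1 in 20 groups. S7A replicate 4 was that array for dre4 (0.45 against 0.65 to 0.68) and ppm1 (-1.55 against -2.27 to -2.15) relative to exons, and for igo1 (0.52 against 0.99 to 1.07), pot1 (-0.40 against -1.30 to -1.18) and cka1 (-0.85 against -1.02 to -0.997) in first minus later introns. S2A replicate 4 was that array relative to exons for tcg1 (2.18 against 3.35 to 3.49), SPCC417.09c (-1.24 against -0.86 to -0.78), rxt2 (-0.75 against -0.995 to -0.966) and atp1 (0.34 against 0.95 to 1.07). In first minus later introns it stood apart for tcg1 (2.58 against 3.75 to 3.82), tom20 (2.25 against 3.32 to 3.35) and pot1 (0.084 against -1.03 to -0.84). For osh2 in S2A/S7A it was replicate 5 (-0.90 against -1.47 to -1.32). Of these 13 values, 12 lay on the 2 arrays numbered 4 in S7A and S2A, and 11 of the 12 were nearer 0 than the other arrays. What sets these arrays apart was not tested.

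Several named first introns went opposite ways in 2 mutants, and the test of the difference itself passed. tfg1 was at 0.48 in S7A against -0.70 in S2A and -0.64 in S2A/S7A, differences of -1.19 and -1.13. SPAC17C9.11c was at 0.34 in S7A against -0.72 in S2A and -0.57 in S2A/S7A, differences of -1.07 and -0.91. SPBC3E7.11c was at -0.41 in S2A and 0.70 in S2A/S7A, a difference of 1.10. SPCP1E11.01c was at -0.59 in S7A and 0.72 in S2A/S7A, a difference of 1.31. drc1 was at 0.54 in S7A and -0.42 in S2A/S7A, a difference of -0.96. SPCC1529.01 was at -0.22 in S7A and 1.46 in S7E, a difference of 1.68. sec1 was at 0.22 in S2A/S7A and -1.03 in S7E, a difference of -1.25. In all but sec1 the exon probe carried most of the difference. With exon and junction probes together as the reference, the differences were -0.41 and -0.36 for tfg1, -0.22 (adjusted p = 0.208, not past the threshold) and -0.38 for SPAC17C9.11c, and 0.31 (adjusted p = 0.12, not past it) for SPBC3E7.11c. Those of SPCP1E11.01c, drc1, SPCC1529.01 and sec1 were 1.42, -0.94, 1.68 and -1.19 in that setting, all past the threshold.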

How the results depend on the processing

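Total counts of first introns, of first minus later introns and of first junctions stayed within 1.5 times in most alternatives, with these exceptions. With values on all 16 arrays only, S2A had 291 calls, and first minus later introns had 253 in S7A and 272 in S2A/S7A; fewer introns (731) enter that fit. With 3 arrays left out together (the replicates numbered 4 of S7A and of S2A, and number 1 of S7E), S2A/S7A against S2A had 244 calls, and first junctions had 243 in S7A and 232 in S2A/S7A. With arrays scaled to equal spread, first junctions had 311 in S7A and 59 in S7E, and in S7E they had 48 without the dye term. With the replicate number as a block, S7A, S2A, S2A/S7A and S7E had 314, 344, 515 and 366 first introns of 1025 fitted, and first junctions in S7E had 50; fin1, bet4, cdc37, rsm19, sar1 and nSPAC25H1.10c lost their calls.

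Leaving out 1 array at a time, counts of first introns ran from 275 to 397 in S7A, 340 to 432 in S2A, 455 to 528 in S2A/S7A and 334 to 414 in S7E, and between mutants from 261 to 350 (S2A against S7A), 77 to 132 (S2A/S7A against S2A), 187 to 262 (S2A/S7A against S7A), 241 to 304 (S7E against S7A), 155 to 231 (S7E against S2A) and 137 to 176 (S7E against S2A/S7A). First minus later introns ran from 263 to 336, 166 to 220, 342 to 380 and 190 to 250, and first junctions from 89 to 128, 73 to 128, 75 to 97 and 40 to 104, in S7A, S2A, S2A/S7A and S7E. The direction that led turned in several. S7E had more higher than lower first introns with the replicate block (197 and 169), without replicate 1 (177 and 157), without the 3 arrays (215 and 203) and when centred on all introns (273 and 240). S2A had more lower ones on the intron probe's own value (262 against 223). Centring also turned S7A (213 higher, 189 lower) and S2A/S7A (317 and 245), and first junctions in S2A/S7A turned without the dye term (51 higher, 54 lower). The arrays whose absence moved a total count by over 1.5 times were S2A replicates 2 (81) and 3 (77) and S2A/S7A replicate 3 (78) in S2A/S7A against S2A, S2A replicate 3 (166) and S7E replicate 1 (190) in first minus later introns, and, in first junctions, S7A replicates 1 (96), 2 (89) and 3 (97), S2A replicate 3 (73), S2A/S7A replicate 3 (75) and S7E replicate 1 (40). In first minus later introns of S7E, sar1 ran from -1.89 to 0.12 as single arrays were left out, the latter without replicate 1, and was at 0.14 without the 3 arrays.

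With the intron probe's own value in place of the value relative to exons, 21 named values changed sign: sei1 in S7A (-0.16), S2A (-0.030) and S2A/S7A (-0.057), dre4 in S7A (-0.29), pet801 in S2A (-0.32) and S2A/S7A (-0.12), mde1 (-0.29) and rpb1 (0.025) in S2A, SPAC11D3.11c in S2A/S7A (-0.54), and mug184 (-0.082) and sir2 (-0.22) in S7E. Between mutants they were tfg1 (0.25) and SPAC17C9.11c (0.17) in S2A against S7A, tfg1 (0.28), SPAC17C9.11c (0.20) and SPCP1E11.01c (-0.0011) in S2A/S7A against S7A, SPBC3E7.11c in S2A/S7A against S2A (-0.21), SPCC1529.01 in S7E against S7A (-0.47), mug184 (-0.14) and lsd90 (-0.31) in S7E against S2A, and mug184 in S7E against S2A/S7A (-0.26). In that setting the exon value is no longer subtracted. With exon and junction probes as the reference 6 named calls were lost: dre4 in S7A, sbp1 in S7E and against S7A, SPAC17C9.11c and pca1 in S2A against S7A, and SPBC3E7.11c in S2A/S7A against S2A. The centring on all introns and the list counts without arrays were chosen after seeing the data.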

Other observations

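The introns of atp14 moved apart within the gene. Intron 3 was at -1.07, -0.82, -1.03 and -0.49 relative to exons in S7A and at -1.44, -0.80 and -0.80 in S7E, where the first intron of atp14 ran from 0.06 to 0.35 and from -0.25 to 0.44. The fitted values of intron 3 were -0.85 (limma adjusted p = 9.65e-06) and -1.03 (limma adjusted p = 7.70e-06). In S2A/S7A intron 3 was at -0.28 while intron 2 was at 0.51 and intron 4 at 0.47, all past the threshold, beside the first intron at 1.85.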
